A study of Mus musculus with 18 samples.

Results

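The question addressed here is how TGF-β, a growth factor that drives fibroblasts to lay down matrix, changed gene expression in cells transfected beforehand with the CMV-miR-29b plasmid. The libraries were chosen by their labels: of the 18 in the series, the 6 with plasmid CMV-miR29b were compared, 3 with TGF-β against 3 with no treatment. Of the 55450 genes in the table, 21161 had enough counts to be tested. All libraries were made from poly(A) RNA of mouse embryonic fibroblasts (MEF), matrix-making cells obtained from ATCC and grown in culture.

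Both groups were transiently transfected with a Lipofectamine reagent. The CMV-miR-29b plasmid has a pcDNA3 backbone in which human miR-29b-1 and EGFP stand behind the CMV promoter, a viral promoter, and the paper also describes mRFP1 behind an SV40 promoter as a marker of transfected cells. Treated cells received TGF-β at 20 ng/ml, beginning 6 h after the plasmid, and were collected 24 h later, while untreated cells received none. The other 12 libraries came from cells with empty pcDNA3 or with Col1a1-miR-29b, in which a collagen promoter drives the miRNA. These libraries served for comparison and were also part of the fit that gave the main calls. Their 4 groups, each plasmid with TGF-β and with no treatment, hold 3 libraries apiece.

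Within each group the libraries are replicates c, d and e. Their total counts were 79164078, 76123619 and 76369168 without treatment and 72959505, 65898017 and 73013633 with TGF-β, so every treated library had fewer counts than every untreated one. Genes for ribosomal proteins took 3.61%, 3.58% and 3.70% of the counts without treatment and 3.29%, 3.45% and 3.47% with TGF-β, and mitochondrial genes took 2.53%, 1.74% and 2.43% and then 2.46%, 2.45% and 2.65%, with untreated replicate d the lowest. Values are given as CPM, the counts scaled by TMM factors to a common library total, a scale that compares libraries for 1 gene. Levels of different genes are compared as FPKM, which also allows for transcript length. A fold change is a log2 fold change of TGF-β over no treatment (log2FC) with its standard error (SE). A gene is said to rise or fall where edgeR's quasi-likelihood test gave a Benjamini-Hochberg adjusted p under 0.05 over all genes tested. Groups are said not to overlap where every library of one lies above every library of the other.

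TGF-β binds a pair of receptor kinases that phosphorylate Smad proteins, and these enter the nucleus with Smad4 and act on genes for collagens, contractile proteins and the pathway's own inhibitors. The miR-29 family pairs through its seed, the bases near the 5′ end, with sites in the 3′ UTRs of many collagen transcripts and lowers their RNA or its translation. Mature mouse members of the family, from RefSeq (GRCm38.p6), are printed with the seed in capitals. The plasmid carries the human precursor, whose sequence is not in the files used here.

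mmu-miR-29a-3p: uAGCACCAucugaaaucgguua

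mmu-miR-29b-3p: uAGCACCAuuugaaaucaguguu

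mmu-miR-29c-3p: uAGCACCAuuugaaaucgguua

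The DNA match to this seed is TGGTGCT, and it is in capitals in the sites printed next, each with 15 bases before it and 8 after it. They come from the 3′ UTRs of fibrillar collagens in the GENCODE M21 annotation of GRCm38 and are written in the direction of the transcript. A match describes the sequence, and whether miR-29b acts on it was not tested here.

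Col1a1 (chr11:94952523-94952552): gtgggaaggaatttcTGGTGCTatagaagc

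Col3a1 (chr1:45348967-45348996): ttcaaaatgtctcaaTGGTGCTataataaa

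Col5a2 (chr1:45374958-45374987): cttttcttttaatgaTGGTGCTaaaattat

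Col2a1 (chr15:97975674-97975703): gcgtgtcctacacaaTGGTGCTattctgtg

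Col5a1, the first of 4 (chr2:28037989-28038018): ataactatgaacattTGGTGCTgaattttt

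Col11a1, the first of 2 (chr3:114219068-114219097): ctatttggatttcgtTGGTGCTgtagaaaa

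The 3′ UTRs of 8 of the 10 fibrillar collagen genes tested hold at least 1 such match, against 14.8% of all genes tested with an annotated 3′ UTR. Among other collagens 12 of 22 hold one.

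The transfected gene checks the labels. Mir29b-1 (ENSMUSG00000065604) had 110, 115 and 309 counts without treatment, 214, 203 and 293 with TGF-β, and 0 in every empty vector library. On the CPM scale these were 1.40, 1.5000 and 4.03 CPM without and 2.92, 3.10 and 4.03 CPM with TGF-β. The groups overlapped, and the difference did not pass the threshold (log2FC 0.54, edgeR adjusted p = 0.662; two-sided exact permutation p = 0.3, where 3 libraries against 3 give 0.1 at the least). Reads of the precursor do not measure the mature miRNA.

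Cell type markers were read as whole lists. Of 12 fibroblast markers, 10 were tested, 4 rose and 1 fell. Averaged over both groups, 7 of the 12 reached 1 FPKM. Lum had no counts, and Thy1 had 0, 0 and 4 counts in each group. Mean FPKM without and with TGF-β was 0.110 and 0.0487 for Fap, 0.576 and 0.409 for Dcn, and 0.770 and 1.01 for Pdgfra. The summed FPKM of the 12 was 618, 618 and 583 without treatment and 745, 812 and 769.8 with TGF-β. The most abundant was S100a4 without treatment, at 195 ± 6.76 FPKM (SD, n = 3), and Col1a1 with TGF-β, at 249 ± 2.55 FPKM (SD, n = 3). S100a4 was the marker that fell (log2FC −0.35). Col1a1 and Col1a2 carried the rise of the sum, with changes in mean FPKM of 134 and 49.8, against −42.3 for S100a4. The lists for other cell types summed to less. Smooth muscle markers summed to 22.9, 24.1 and 21.3 FPKM against 32.6, 31.4 and 32.3, with 2 of 5 tested higher, Smtn the most abundant and Myocd at the floor. Others of the list went the other way: Cnn1 and Lmod1 had log2FC −0.51 and −0.56 and did not pass (edgeR adjusted p = 0.114 and 0.367). Epithelial markers summed to 38.1, 38.3 and 38.9 FPKM against 22.3, 22.5 and 22.7, nearly all from Krt19, which fell while Krt14 rose, among 6 tested. Chondrocyte markers summed to 1.99, 1.81 and 1.98 FPKM against 5.30, 5.27 and 4.41, chiefly Sox9, with 2 of 4 tested higher and Col9a1 at the floor. Adipocyte markers summed to 0.253, 0.204 and 0.273 FPKM against 0.0741, 0.103 and 0.142, and Cebpa was at the floor. The 1 adipocyte gene tested, Fabp4, fell (log2FC −1.53), but its call was lost without any 1 of the 6 libraries (adjusted p 0.0591 to 0.155). Macrophage markers summed to 14.2, 16.2 and 13.8 FPKM against 15.6, 15.2 and 14.3, chiefly Cd68, with Itgam and Tyrobp at the floor. Endothelial markers summed to 0.352, 0.395 and 0.292 FPKM against 0.447, 0.582 and 0.515, chiefly Cdh5, with Emcn at the floor. Skeletal muscle markers summed to 0.0969, 0.0922 and 0.0321 FPKM against 0.203, 0.109 and 0.199, and Myod1, Myog and Myf5 were at the floor. No gene of these last 3 lists passed the threshold. These are bulk libraries, in which fewer cells of a type and less RNA per cell cannot be told apart.

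TGF-β changed 1047 of the 21161 genes tested, 4.95% of them. Of these, 652 rose (3.08%) and 395 fell (1.87%). The treated and untreated libraries did not overlap for 651 of the genes that rose and 394 of those that fell. A lack of overlap therefore adds little to a call. A change of at least 2-fold was reached by 170 of the genes that rose (0.803%) and by 52 of those that fell (0.246%). At an unadjusted p under 0.05 there were 3310 genes. DESeq2, a second tool, called 1488 genes, among them all 1047. The p-values measure only the spread between these samples. Of the 6 libraries, untreated replicate c was the one on which the number of genes lower rested most, and without it 249 genes fell. A fit to the 6 libraries alone, with fewer libraries to estimate the spread from and 19074 genes tested, gave 361 genes higher and 166 lower. The median absolute log2FC was 0.54 among genes that rose and 0.40 among those that fell, against 0.17 over all genes tested. The median of mean CPM was 38.5 among genes that rose and 45.1 among those that fell, against 7.26 over all genes tested. The median log2FC over all genes was −0.0025, the value beside which each list's median is to be read. Treated and untreated libraries lay apart on the first principal component of the 18 libraries, which held 21.03% of the variance.

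**Figure D1:**
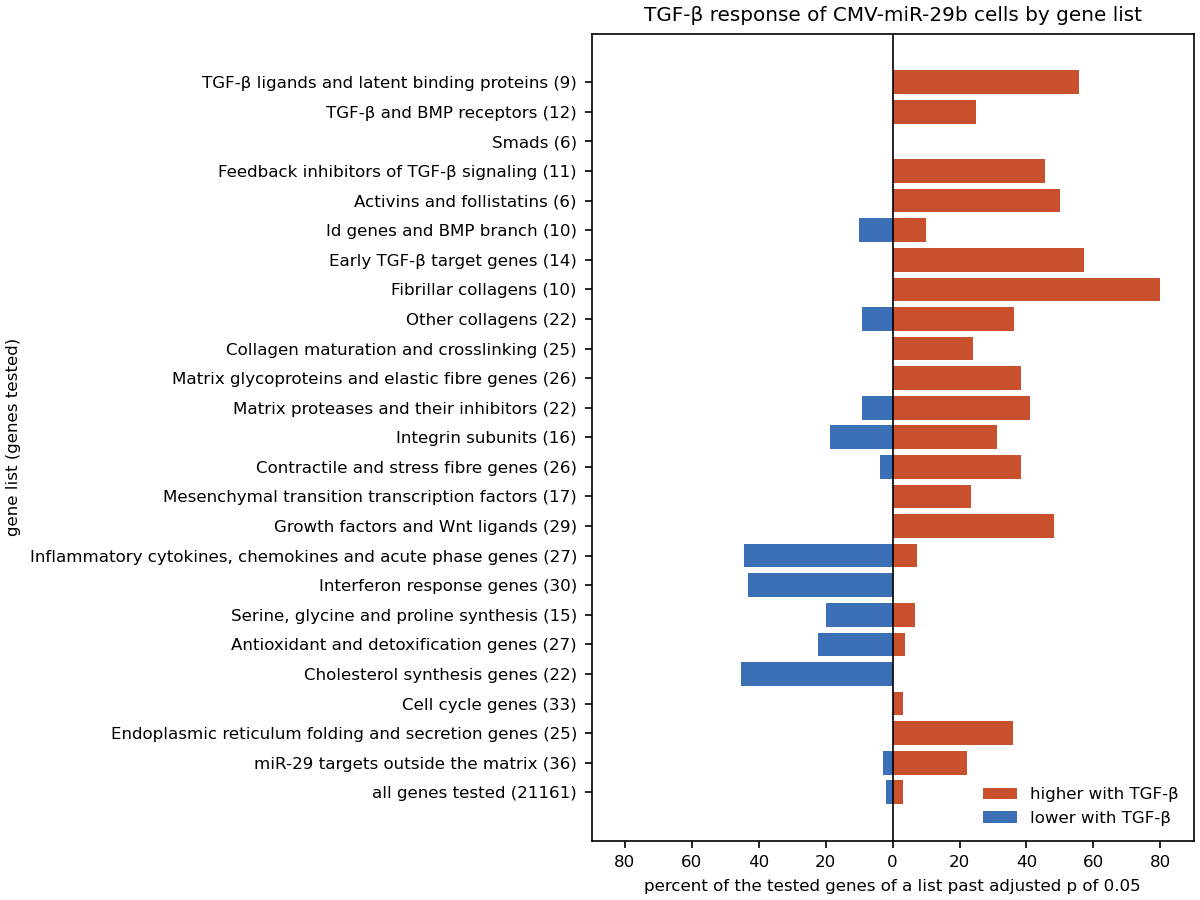
Percent of the tested genes of each list that rose (right) or fell (left) with TGF-β in CMV-miR-29b cells, with the number tested in brackets; the last bar is for all 21161 genes tested. Of fibrillar collagens 8 of 10 were higher, and of cholesterol synthesis genes 10 of 22 were lower. Lists and members were chosen with earlier results of these data known.

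Lists and their members were chosen with earlier results of these data known. A list's share beside that of all genes tested is thus a description and not a test. Genes of the pathway itself come first. Of 9 genes for TGF-β ligands and latent binding proteins, 5 rose (3.08% of all genes tested rose), with a list median log2FC of 0.62. Ltbp2 (ENSMUSG00000002020, chr12:84783212-84876532), which encodes a latent binding protein, had 4.60, 5.17 and 4.56 CPM without treatment and 23.4, 25.9 and 24.9 CPM with TGF-β. The groups did not overlap (log2FC 2.37, SE 0.11, adjusted p = 1.25e-09). Ltbp1 and Ltbp3 rose too (log2FC 0.79 and 0.62). Tgfb3, a ligand gene, had 15.98, 18.6 and 15.3 CPM and rose to 23.6, 24.3 and 26.2 CPM, without overlap (log2FC 0.57, SE 0.11, adjusted p = 0.00441). Tgfb1 rose as well (log2FC 0.39), although without untreated replicate d its adjusted p was 0.0527.

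Of 12 TGF-β and BMP receptor genes, 3 rose (3.08% of all genes tested rose) and the list median was 0.0057. Acvr1 had 28.3, 22.0 and 26.3 CPM in untreated and 41.7, 36.0 and 40.5 CPM in treated libraries. Its groups did not overlap (log2FC 0.63, SE 0.13, adjusted p = 0.00818). Bmpr2 rose by a similar amount (log2FC 0.55, adjusted p = 1.77e-05). Bmpr1b rose from no counts in any untreated library to 0.613, 0.275 and 0.990 CPM with TGF-β (adjusted p = 0.00110). Tgfbr2, the receptor that binds the ligand, gave 78.8, 68.3 and 73.1 CPM against 68.4, 69.3 and 66.5 CPM, which overlap (log2FC −0.11, adjusted p = 0.301). Of 6 Smad genes, the ones that carry the signal, 0 passed with edgeR and 0 with DESeq2, and 1 had an unadjusted p under 0.05. Their list median was −0.0080. Smad4 was the most abundant, at 18.3 ± 1.48 FPKM (SD, n = 3) without and 21.1 ± 0.503 FPKM (SD, n = 3) with TGF-β (log2FC 0.21, adjusted p = 0.239).

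Inhibitors that the pathway turns on in its own feedback come next. Of 12 such genes 11 were tested, Bambi having no counts, and 5 rose (3.08% of all genes tested rose), with a list median of 0.34. Pmepa1 (ENSMUSG00000038400, chr2:173224458-173276533) had 13.1, 12.2 and 11.9 CPM untreated and 84.7, 83.6 and 76.4 CPM with TGF-β. These did not overlap (log2FC 2.72, SE 0.074, adjusted p = 7.41e-12). Smad7 had 17.0, 17.4 and 10.3 CPM and then 43.1, 40.2 and 37.5 CPM, again apart (log2FC 1.44, SE 0.30, adjusted p = 0.00876). Ldlrad4 and Tgif1 also rose, by log2FC 1.71 and 0.73.

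Activins and follistatins had 6 of 8 genes tested, of which 3 rose (3.08% of all genes tested rose), with a median of 0.29. Inhba, which encodes an activin subunit, went from 14.0, 11.9 and 12.2 CPM to 40.6, 40.1 and 38.3 CPM. There was no overlap (log2FC 1.64, SE 0.13, adjusted p = 8.7e-07). Fstl3, an inhibitor of activin, rose by log2FC 1.04, and Fstl1 by 0.64. Of 13 Id genes and genes of the BMP branch 10 were tested, 1 rose and 1 fell (3.08% and 1.87% of all genes tested), around a median of 0.020. Id3 had 37.7, 40.6 and 41.9 CPM without treatment and 30.2, 26.7 and 26.9 CPM with it. The treated libraries lay below all untreated ones (log2FC −0.52, SE 0.082, adjusted p = 0.000875). Bmp1, a protease that trims procollagen, was the gene of this list that rose (log2FC 0.70, adjusted p = 0.000302).

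Of 15 early target genes of TGF-β, 14 were tested and 8 rose (3.08% of all genes tested rose), with a list median of 0.91. Ccn2, known as connective tissue growth factor, had 35.0, 38.7 and 34.8 CPM in the untreated libraries and 155, 128 and 129 CPM in the treated ones. The groups stood apart (log2FC 1.92, SE 0.096, adjusted p = 3.76e-09). Pdgfb rose by log2FC 2.07, Jag1 by 1.61, Thbs1 by 1.25 and Junb by 0.67. Klf10 had 123, 129 and 118 CPM untreated and 63.6, 155 and 57.4 CPM with TGF-β, where replicate d stood above all other libraries. It did not pass with all libraries (log2FC −0.42, adjusted p = 0.469), and without treated replicate d it was lower (log2FC −1.03, adjusted p = 5.78e-08).

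**Figure D2:**
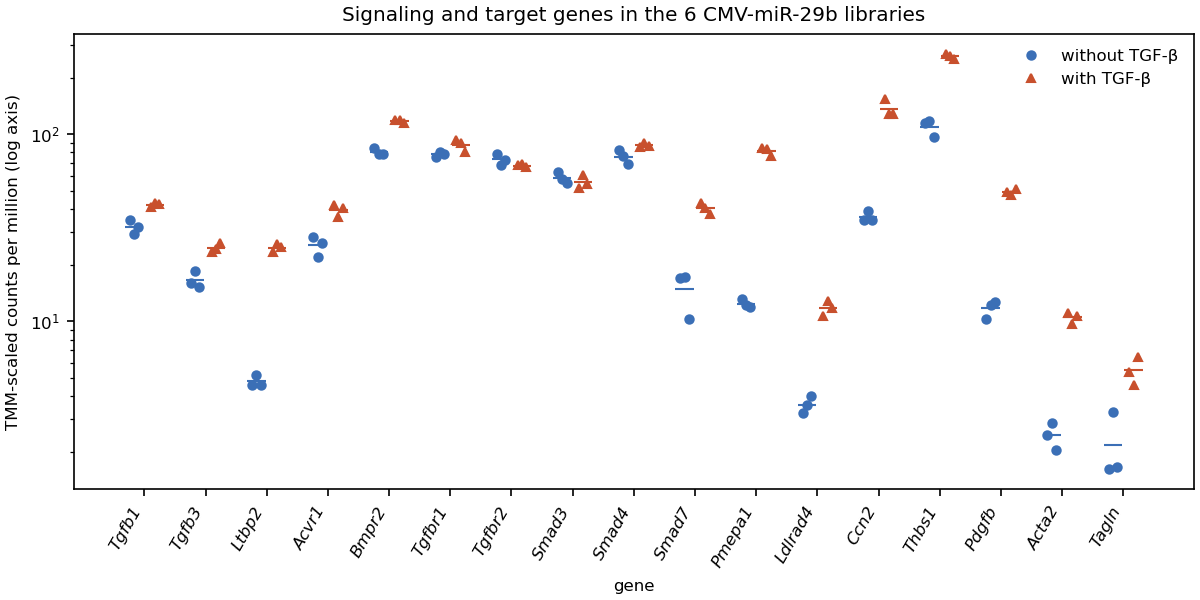
Normalized counts (CPM), on a log axis, of TGF-β pathway and target genes in each of the 3 untreated and 3 TGF-β libraries of CMV-miR-29b cells; each point is a library. For Pmepa1 the treated libraries lie between 76.4 and 84.7 CPM, above the untreated ones.

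The largest rises and falls were taken from called genes with a mean of at least 1 CPM and no overlap between groups. Of the rises the largest was that of Olr1 (ENSMUSG00000030162, chr6:129485244-129507165), a scavenger receptor gene, which had 0.153, 0.300 and 0.209 CPM without treatment and 7.07, 6.62 and 6.01 CPM with TGF-β. These did not overlap (log2FC 4.89, SE 0.35, adjusted p = 2.92e-07). Ctsw had 0.446, 1.25 and 0.938 CPM in untreated and 27.6, 26.5 and 22.9 CPM in treated libraries, also apart (log2FC 4.87, SE 0.35, adjusted p = 2.36e-07). Other large rises were those of Lce1f (log2FC 4.28), Megf10 (4.02) and Oacyl (2.96). Anxa13 rose from 0, 0 and 0 counts in untreated libraries to 62, 55 and 54 counts in treated ones (adjusted p = 2.19e-05). In FPKM the greatest gain was that of Col1a1, followed by Igfbp7, which had 63.4 ± 0.937 FPKM (SD, n = 3) without treatment and 192 ± 8.15 FPKM (SD, n = 3) with TGF-β (log2FC 1.60, SE 0.057, adjusted p = 1.34e-10), with no overlap in CPM. The promoters of 3 genes with large rises are printed from RefSeq (GRCm38.p6), 250 bases before the start site to 50 after it, in the direction of the gene. Capitals mark matches on either strand to the Smad site CAGAC, to the TEAD site GGAATG and to the AP-1 site TGANTCA, short sequences that many promoters hold. RefSeq places the start site of Postn upstream of the gene's start in the table.

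Olr1 promoter (chr6:129507116-129507415): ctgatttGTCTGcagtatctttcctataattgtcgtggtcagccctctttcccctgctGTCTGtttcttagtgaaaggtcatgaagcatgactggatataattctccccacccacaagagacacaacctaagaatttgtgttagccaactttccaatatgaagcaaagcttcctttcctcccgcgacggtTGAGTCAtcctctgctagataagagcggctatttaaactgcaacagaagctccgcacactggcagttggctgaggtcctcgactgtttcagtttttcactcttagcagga

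Postn promoter (chr3:54359017-54359316): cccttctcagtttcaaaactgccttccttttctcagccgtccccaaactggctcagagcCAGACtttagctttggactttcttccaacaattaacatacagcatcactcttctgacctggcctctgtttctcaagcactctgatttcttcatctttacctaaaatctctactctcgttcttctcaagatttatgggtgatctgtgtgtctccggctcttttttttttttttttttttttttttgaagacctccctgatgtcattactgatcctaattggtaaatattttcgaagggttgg

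Tnnt2 promoter (chr1:135836084-135836383): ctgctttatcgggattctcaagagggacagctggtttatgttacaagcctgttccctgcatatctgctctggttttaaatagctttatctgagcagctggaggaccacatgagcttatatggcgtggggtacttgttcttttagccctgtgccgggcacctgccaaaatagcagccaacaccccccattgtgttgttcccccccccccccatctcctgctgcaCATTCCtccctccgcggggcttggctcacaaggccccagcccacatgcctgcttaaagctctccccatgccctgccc

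Fibrillar collagens, the main matrix proteins of scars, had 10 of 11 genes tested, and 8 rose (3.08% of all genes tested rose), with a median log2FC of 1.15. Col1a1 (ENSMUSG00000001506, chr11:94936224-94953042) was the most abundant, with 849, 924 and 749 CPM in untreated and 1799.6, 1858 and 1828 CPM in treated libraries. No treated library lay within the range of the untreated ones (log2FC 1.12, SE 0.080, adjusted p = 2.5e-07). On the FPKM scale it had 115 ± 12.2 FPKM (SD, n = 3) and 249 ± 2.55 FPKM (SD, n = 3). Col1a2, the partner chain, had 579, 507 and 471 CPM and then 1102, 1326 and 1209.5 CPM. Here too the groups were apart (log2FC 1.22, SE 0.096, adjusted p = 7.55e-07). Col3a1 went from 13.8 ± 1.33 FPKM (SD, n = 3) to 23.2 ± 1.69 FPKM (SD, n = 3) (log2FC 0.75, SE 0.11, adjusted p = 0.000444), with no overlap in CPM. Among the less abundant chains, Col11a1 had 7.48, 7.75 and 7.56 CPM untreated against 31.8, 32.8 and 29.8 CPM treated. It rose without overlap (log2FC 2.05, SE 0.16, adjusted p = 5.37e-07). Col2a1, Col5a3, Col5a1 and Col5a2 rose as well, by log2FC 1.39, 1.17, 0.84 and 0.66.

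Of 32 other collagen genes 22 were tested, 8 rose and 2 fell (3.08% and 1.87% of all genes tested), with a list median of 0.49. Col12a1 had 112, 113 and 101 CPM without and 199, 225 and 203 CPM with TGF-β. All 3 treated libraries lay above the untreated ones (log2FC 0.95, SE 0.062, adjusted p = 9.17e-08). Col7a1 (log2FC 1.06), Col18a1 (0.73), Col4a2 (0.62) and Col16a1 (0.32) also rose. Col6a3 was scarce, at 0.0112 ± 0.00739 FPKM (SD, n = 3) in untreated cells, and rose by log2FC 3.21. Col4a5 fell from 91.1, 82.7 and 79.9 CPM to 56.2, 55.5 and 49.9 CPM, with every treated library lower (log2FC −0.65, SE 0.054, adjusted p = 1.4e-06). The other gene that fell, Col6a1 (log2FC −0.20), lost its call when untreated replicate d or any 1 treated library was left out (adjusted p 0.0518 to 0.0838), so that 1 gene of the list was lower then.

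Of 26 collagen maturation and crosslinking genes 25 were tested and 6 rose (3.08% of all genes tested rose), with a list median of 0.092. Lox, whose enzyme crosslinks collagen, had 3.70 ± 0.270 FPKM (SD, n = 3) in untreated and 5.56 ± 0.415 FPKM (SD, n = 3) in treated libraries. In CPM the groups did not overlap (log2FC 0.59, SE 0.090, adjusted p = 0.000714). P4ha3, a prolyl hydroxylase gene, rose by log2FC 0.90, Pcolce2 by 1.18, Fkbp10 by 0.32 and Plod2 by 0.24. Pcolce was just short of the threshold with all libraries (log2FC −0.26, adjusted p = 0.0502). It passed as lower without treated replicate d (log2FC −0.31, adjusted p = 0.0437) and with DESeq2.

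Of 29 genes for matrix glycoproteins and elastic fibres, 26 were tested and 10 rose (3.08% of all genes tested rose), with a median of 0.58. Postn (ENSMUSG00000027750, chr3:54361109-54391037), the gene for periostin, had 0.102, 0.300 and 0.104 CPM without treatment and 2.98, 3.38 and 3.60 CPM with TGF-β. The 2 groups stood apart without overlap (log2FC 4.29, SE 0.74, adjusted p = 0.00196). Has2, a hyaluronan synthase gene, rose by log2FC 2.75 (adjusted p = 9.13e-08); Has2os overlaps it on the other strand, and reads of the pair may not be separable. Other genes named here also overlap a gene with many counts on the other strand, among them Ldlrad4 with Fam210a, Scx with Bop1, Tagln with Pcsk7, Cp with Hps3 and Zfp385c with Dhx58os. Sparc was the most abundant of the list, going from 183 ± 8.98 FPKM (SD, n = 3) to 245 ± 4.89 FPKM (SD, n = 3) (log2FC 0.42, SE 0.043, adjusted p = 1.29e-05), with no overlap in CPM. Cthrc1, Bgn, Fbln2, Tnc and Fbn1 rose by log2FC 1.94, 1.02, 0.99, 0.94 and 0.76. Fn1, the fibronectin gene, had 1820.4, 1931 and 1536 CPM untreated and 1889.6, 2075 and 1851 CPM treated, which overlap (log2FC 0.14, adjusted p = 0.380). Spp1 had log2FC −0.45 (adjusted p = 0.109) and passed as lower without untreated replicate d (log2FC −0.59, adjusted p = 0.0297) and with DESeq2.

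Of 25 matrix protease and inhibitor genes, 22 were tested, 9 rose and 2 fell (3.08% and 1.87% of all genes tested), with a median of 0.42. Timp3, an inhibitor, went from 74.2, 65.2 and 70.3 CPM to 179, 174 and 165 CPM. The groups did not overlap (log2FC 1.31, SE 0.065, adjusted p = 3.76e-09). Timp1 (log2FC 0.80), Mmp14 (0.58), Adam19 (0.94) and Adamts6 (1.17) rose as well. Adamts5, an aggrecanase gene, had 40.2, 36.0 and 39.4 CPM and fell to 18.1, 16.8 and 14.6 CPM, all treated libraries being lower (log2FC −1.22, SE 0.089, adjusted p = 3e-07). Adamts9 fell too (log2FC −0.44). Without treated replicate c the number lower was 4 in place of 2, and in the fit of the 6 libraries alone it was 1.

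Integrin subunit genes had 16 of 19 tested, 5 higher and 3 lower (3.08% and 1.87% of all genes tested), around a median of 0.096. Itga11, a collagen receptor subunit, had 2.09, 1.5000 and 2.52 CPM untreated and 9.40, 8.76 and 8.59 CPM with TGF-β. No treated library lay within the range of the untreated ones (log2FC 2.13, SE 0.21, adjusted p = 7.08e-06). Itgb5 and Itgb1 rose by log2FC 0.71 and 0.36. Itgb8 had 4.30, 4.54 and 4.41 CPM against 2.71, 2.63 and 2.35 CPM and fell, with all treated libraries below the rest (log2FC −0.78, SE 0.14, adjusted p = 0.00274). Itga3 and Itga6 fell too (log2FC −0.55 and −0.33). Itga2 had 0, 10 and 0 counts in untreated and 50, 43 and 34 in treated libraries and did not pass with edgeR (log2FC 3.75, adjusted p = 0.110), though it did with DESeq2; without untreated replicate d, the untreated library with counts, its adjusted p was 0.0304.

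Contractile and stress fibre genes had 10 of 26 higher and 1 lower (3.08% and 1.87% of all genes tested), with a median of 0.29. Acta2 (ENSMUSG00000035783, chr19:34241090-34255590), the gene for smooth muscle actin and a marker of myofibroblasts, had 2.48, 2.86 and 2.05 CPM without treatment and 11.1, 9.73 and 10.7 CPM with TGF-β. All 3 treated libraries lay above the untreated ones (log2FC 2.09, SE 0.15, adjusted p = 2.12e-07). Tnnt2, a troponin gene, had 7.82, 6.55 and 5.96 CPM and then 57.8, 63.0 and 64.7 CPM, the largest rise of the list (log2FC 3.19, SE 0.13, adjusted p = 7.01e-10), without overlap. Tagln, Fhl2 and Tpm1 rose by log2FC 1.32, 1.09 and 0.59, and Tpm2 fell (log2FC −0.29). The promoter of Acta2 holds 1 Smad site and 1 TEAD site, in that order.

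Acta2 promoter (chr19:34255324-34255623): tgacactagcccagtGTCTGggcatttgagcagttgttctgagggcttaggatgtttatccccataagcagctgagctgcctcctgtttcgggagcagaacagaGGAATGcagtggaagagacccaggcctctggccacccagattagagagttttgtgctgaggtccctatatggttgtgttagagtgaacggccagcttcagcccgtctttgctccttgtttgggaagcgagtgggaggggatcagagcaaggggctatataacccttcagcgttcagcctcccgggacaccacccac

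Over all 27028 promoters in the RefSeq table, CAGAC was matched in 49.7%, GGAATG in 14.6% and TGANTCA in 7.93%. Among the 12369 promoters of genes tested the shares were 48.2%, 12.6% and 5.93%, and among the 466 of genes that rose 54.1%, 13.5% and 6.65%. For the 101 genes that rose at least 2-fold they were 57.4%, 20.8% and 15.8%. Among the 294 genes that fell they were 39.8%, 16.3% and 7.82%. The palindrome GTCTAGAC, in which 2 Smad proteins can bind, was in 0.211% of all promoters and in 0.215% of those of genes that rose.

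Of 18 transcription factor genes of mesenchymal transition, 17 were tested and 4 rose (3.08% of all genes tested rose), with a median of 0.16. Runx1 had 12.4, 11.1 and 9.19 CPM untreated and 27.5, 32.7 and 33.9 CPM with TGF-β. The groups stood apart (log2FC 1.52, SE 0.13, adjusted p = 1.3e-06). Scx, Sox9 and Sox4 rose by log2FC 1.39, 1.39 and 1.34. Snai1, the most abundant of the list, had 23.1, 25.1 and 19.97 CPM against 30.0, 28.4 and 25.6 CPM (log2FC 0.30, adjusted p = 0.104).

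Growth factor and Wnt genes had 29 of 36 tested, 14 higher (3.08% of all genes tested rose), and a median of 0.39. Pdgfc, whose 3′ UTR holds a seed match, had 2.45, 1.73 and 2.22 CPM in untreated and 11.2, 13.0 and 11.8 CPM in treated libraries. These did not overlap (log2FC 2.49, SE 0.27, adjusted p = 2.36e-05).

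Pdgfc (chr3:81213485-81213514): tatttcttccttgtaTGGTGCTagagctta

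Vegfc rose from 0.853, 0.952 and 1.23 CPM to 4.58, 4.45 and 4.44 CPM, without overlap (log2FC 2.15, SE 0.31, adjusted p = 0.000443). Wnt7b was scarce, with 0.178, 0.104 and 0 CPM untreated and 1.19, 1.48 and 1.62 CPM treated (log2FC 3.90, SE 0.64, adjusted p = 0.00129), and did not overlap. Edn1 rose by log2FC 1.20. Wnt2b passed as lower without treated replicate c (log2FC −1.66, adjusted p = 0.0486), against −0.87 and 0.392 with all libraries.

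Of 25 genes for folding and secretion in the endoplasmic reticulum, 9 rose (3.08% of all genes tested rose), with a median of 0.11. Creb3l1, a transcription factor of secretory cells, had 30.7, 24.3 and 28.0 CPM without and 73.7, 73.5 and 68.2 CPM with TGF-β. The 2 groups stood apart without overlap (log2FC 1.37, SE 0.084, adjusted p = 4.62e-08). Creb3l2 rose by log2FC 0.79, Sec23a by 0.42, Sec24d by 0.34 and Xbp1 by 0.34.

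Of 30 inflammatory cytokine, chemokine and acute phase genes 27 were tested and 12 fell (1.87% of all genes tested fell), with a median log2FC of −0.50. Saa3 (ENSMUSG00000040026, chr7:46711998-46715700), an acute phase gene, had 12.0, 11.8 and 13.9 CPM untreated and 4.17, 2.83 and 2.09 CPM with TGF-β. Every treated library was lower (log2FC −2.05, SE 0.20, adjusted p = 8.6e-06). Ccl20, a chemokine gene, had 8.39, 13.4 and 10.1 CPM against 3.13, 2.45 and 1.73 CPM, again without overlap (log2FC −2.12, SE 0.22, adjusted p = 1.29e-05). Ptx3 (log2FC −1.87), Cp (−1.56), Il33 (−1.36), Slpi (−1.28), Lcn2 (−1.08) and C3 (−0.92) fell too. The most abundant of the list, Cxcl10, went from 171 ± 5.74 FPKM (SD, n = 3) to 138 ± 7.94 FPKM (SD, n = 3) (log2FC −0.31, SE 0.049, adjusted p = 0.00103), with no overlap in CPM. Of the 2 genes that rose, Il11 had log2FC 1.25, and its call was lost when any 1 of the 6 libraries was left out (adjusted p 0.0927 to 0.153); that of Lif (log2FC 0.36) was lost without untreated replicate d or e or treated replicate c or d (adjusted p 0.0719 to 0.123).

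Of 30 interferon response genes, all tested, 13 fell (1.87% of all genes tested fell), and the list median was −0.28. Rsad2 had 144, 85.4 and 125 CPM in untreated libraries and 57.7, 74.7 and 61.4 CPM in treated ones. The groups did not overlap (log2FC −0.87, SE 0.16, adjusted p = 0.00362). Oas3, Oas2, Gbp2, Stat2 and Irf7 fell too (log2FC −0.66, −0.51, −0.44, −0.41 and −0.33). The number that fell was 8 without treated replicate c and 6 in the fit of the 6 libraries alone.

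Cholesterol synthesis genes had 22 of 23 tested and 10 lower (1.87% of all genes tested fell), with a median of −0.32. Mvd, an enzyme gene of the mevalonate part of the pathway, had 67.6, 78.3 and 71.8 CPM without and 48.0, 48.1 and 51.4 CPM with TGF-β. All treated libraries were lower (log2FC −0.56, SE 0.088, adjusted p = 0.000922). Mvk (log2FC −0.55), Pmvk (−0.51), Fdps (−0.47) and Nsdhl (−0.35) fell as well.

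Of 29 antioxidant and detoxification genes 27 were tested, 6 fell and 1 rose (1.87% and 3.08% of all genes tested), with a median of −0.22. Gsta4, a glutathione transferase gene, had 9.39, 11.0 and 12.2 CPM and then 7.44, 7.36 and 7.40 CPM. There was no overlap (log2FC −0.55, SE 0.11, adjusted p = 0.00735). Xdh and Gstm1 fell too (log2FC −1.17 and −0.54). The number that fell was 3 without untreated replicate c, 3 without treated replicate e and 2 in the fit of the 6 libraries alone. Txnrd1, the gene that rose (log2FC 0.16), lost its call without untreated replicate d or e or treated replicate c (adjusted p 0.0756 to 0.124).

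Serine, glycine and proline synthesis had 3 of 15 genes lower and 1 higher (1.87% and 3.08% of all genes tested), with a median of −0.11. Phgdh, the first enzyme of serine synthesis, had 332, 334 and 309 CPM untreated and 258, 266 and 274 CPM with TGF-β. No treated library lay within the range of the untreated ones (log2FC −0.29, SE 0.054, adjusted p = 0.00348). The number lower was 1 without untreated replicate c, 2 without treated replicate d or e and 1 in the fit of the 6 libraries alone. Pycr1, the gene that rose (log2FC 0.32), lost its call without any 1 of the 6 libraries (adjusted p 0.0593 to 0.212).

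Of 34 cell cycle genes 33 were tested and 1 rose (3.08% of all genes tested rose), with a median of −0.019. Cdkn1a, an inhibitor of the cycle, had 290.1, 309 and 299 CPM against 406, 366 and 378 CPM with TGF-β. All 3 treated libraries lay above the untreated ones (log2FC 0.35, SE 0.052, adjusted p = 0.000496). E2f1 did not pass with all libraries (log2FC −0.16, adjusted p = 0.0646). It passed as lower without untreated replicate c (log2FC −0.20, adjusted p = 0.0374) and with DESeq2.

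Outside the lists, Enpp2, whose product makes lysophosphatidic acid, had 6.32, 5.15 and 5.93 CPM in untreated and 1.62, 1.97 and 1.43 CPM in treated libraries. It fell without overlap (log2FC −1.79, SE 0.20, adjusted p = 2.51e-05). Dchs2 (log2FC −1.99), Steap4 (−1.78), Mrgprf (−1.48) and Akr1c14 (−1.47) fell by large amounts as well. The paper names Cpt1b and Alox8 for other comparisons. It reports Cpt1b as lower after CMV-miR-29b transfection, and Alox8 as lower with TGF-β, whose effects it counts in empty vector cells. Here Cpt1b had 0.726, 2.39 and 0.847 CPM against 0.395, 0.138 and 0.220 CPM with TGF-β and did not pass (log2FC −2.38, adjusted p = 0.237). Gm44502 overlaps Cpt1b on the same strand, with 3478 counts in the 6 libraries against 359. Reads of that pair may not be separable. Alox8 had no counts without treatment and 4, 67 and 0 counts with it, which overlap, and did not pass (adjusted p = 0.366). In FPKM, Ifitm3 lost much, going from 932 ± 29.1 FPKM (SD, n = 3) to 729.9 ± 10.0 FPKM (SD, n = 3) (log2FC −0.35, SE 0.061, adjusted p = 0.00219), with no overlap in CPM.

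Known or predicted miR-29 targets outside the matrix numbered 36, of which 8 rose and 1 fell (3.08% and 1.87% of all genes tested), with a median of 0.070. In the fit of the 6 libraries alone 5 rose and 0 fell. A seed match was present in the 3′ UTR of 32 of them. Nav1, a gene with 4 matches, had 22.8, 22.2 and 21.6 CPM without treatment and 37.6, 42.4 and 38.0 CPM with TGF-β. The 2 groups stood apart without overlap (log2FC 0.83, SE 0.16, adjusted p = 0.00551). Its first match is printed in the same form as those of the collagens.

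Nav1, the first of 4 (chr1:135439431-135439460): ctgactgtccgaggaTGGTGCTgaaatcac

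Bmf rose by log2FC 0.82. Dnmt1, the gene that fell (log2FC −0.18), lost its call without untreated replicate c or treated replicate c (adjusted p 0.0567 to 0.0682). Across all genes tested with an annotated 3′ UTR, 14.8% of 14375 held a match, against 19.7% of 605 that rose and 13.5% of 371 that fell. The median lengths of these UTRs were 1096, 1507 and 902 bases, and per 1000 bases they held 0.113, 0.122 and 0.108 matches.

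The same contrast was measured with the other plasmids in the same fit. With empty vector 820 genes rose (3.88%) and 425 fell (2.01%), and with Col1a1-miR-29b 634 rose (3.0%) and 280 fell (1.32%). Of the 652 genes that rose in CMV-miR-29b cells, 499 rose with empty vector and 455 with Col1a1-miR-29b. Of the 395 that fell, 214 fell with empty vector and 173 with Col1a1-miR-29b. All 3 plasmids shared 412 genes higher and 145 lower. Across all 21161 genes tested, log2FC with CMV-miR-29b had a Pearson r of 0.22 and a Spearman rho of 0.26 with that of empty vector, and 0.24 and 0.25 with that of Col1a1-miR-29b. Among genes with a mean of at least 1 CPM in all 4 groups compared, log2FC with CMV-miR-29b and with empty vector had a Pearson r of 0.51 and a Spearman rho of 0.42 across 13353 genes, which are not independent replicates. Against Col1a1-miR-29b the values were 0.50 and 0.39 across 13404 genes.

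**Figure D3:**
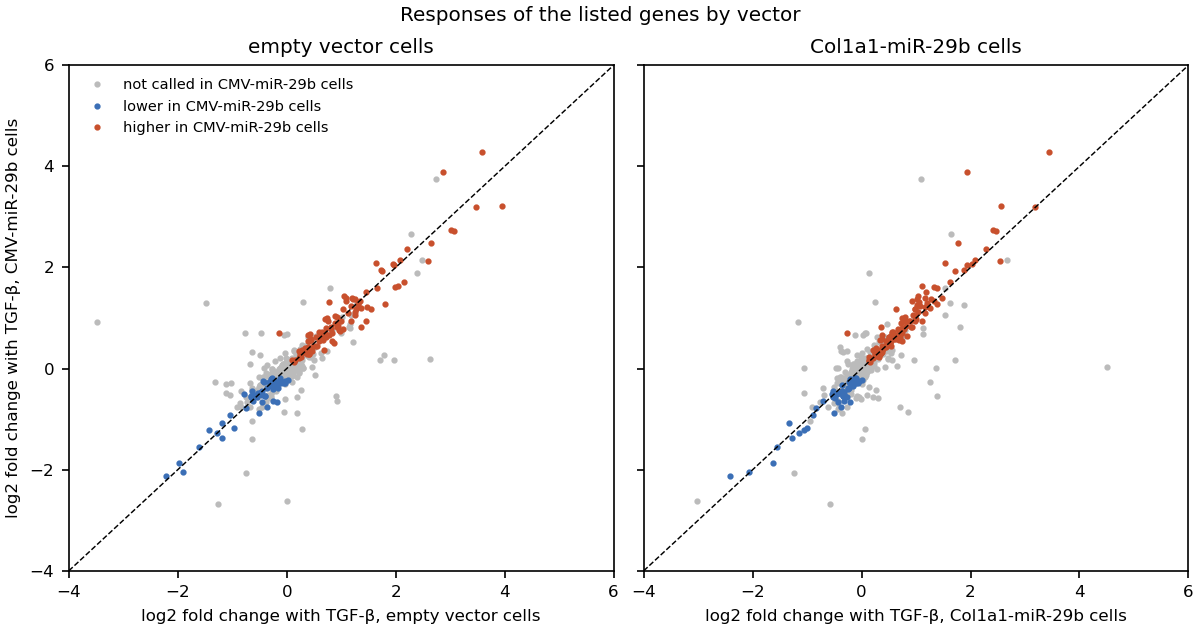
Log2FC with TGF-β in CMV-miR-29b cells (vertical) against log2FC with empty vector and with Col1a1-miR-29b (horizontal), for 460 genes of the lists above the floor; colours mark the genes that rose, fell or did not pass in CMV-miR-29b cells. The dashed line marks equal responses, and 2 points lie outside the axes.

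A difference in response was tested gene by gene as the log2FC in CMV-miR-29b cells minus that with another plasmid. With edgeR, 0 genes passed against empty vector (0.0%) and 0 against Col1a1-miR-29b (0.0%), while 1129 and 1083 had an unadjusted p under 0.05. DESeq2 called 19 and 34 genes. Leaving out 1 CMV-miR-29b library let up to 2 genes pass in either comparison, among them Zfp346 without untreated replicate d, and Klf10 and Zfp729a without treated replicate d. Leaving out a library of the other plasmids was not tried. Of the 1047 genes called in CMV-miR-29b cells, 331 were not called with empty vector, and 308 of these had the same sign there. By the test of the difference, 0 of these 331 genes passed with edgeR and 4 with DESeq2. Of the 419 genes called here and not with Col1a1-miR-29b, 386 had the same sign there, and 0 passed the test of the difference with edgeR and 13 with DESeq2.

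Of the 10 fibrillar collagens tested, 7 had a smaller log2FC here than with empty vector, as did 10913 of the 21161 genes tested. Of the 10 differences, 0 had an unadjusted edgeR p under 0.05 with all libraries. Without untreated replicate e there were 2, and without treated replicate d there was 1. None of the intervals given here is adjusted for the number of genes. Col1a1 had log2FC 1.12 in CMV-miR-29b cells and 1.26 with empty vector, a difference of −0.13 (95% interval −0.35 to 0.085, edgeR adjusted p = 0.945). For Col1a2 the difference was −0.25 (95% interval −0.52 to 0.0088, edgeR adjusted p = 0.929), and for Col3a1 it was −0.22 (95% interval −0.52 to 0.077, edgeR adjusted p = 0.941). Against Col1a1-miR-29b the differences were 0.086 (95% interval −0.13 to 0.31, unadjusted p = 0.451) for Col1a1, 0.067 (95% interval −0.20 to 0.33, unadjusted p = 0.626) for Col1a2 and 0.061 (95% interval −0.24 to 0.36, unadjusted p = 0.697) for Col3a1, each with an adjusted p of 1, and without untreated replicate e all 3 were below 0. Acta2 differed by 0.45 (95% interval 0.061 to 0.84, edgeR adjusted p = 0.922) from its response with empty vector and by 0.57 (95% interval 0.18 to 0.96, edgeR adjusted p = 0.954) from that with Col1a1-miR-29b. Over the lists, fibrillar collagens had 8 genes higher with each of the 3 plasmids. Interferon response genes had 13 lower here and 4 with each of the other plasmids, but their differences from empty vector passed for 0 of 30 genes with edgeR, with 0 by DESeq2 and 6 at an unadjusted p under 0.05. Of these 30 genes, 25 had a smaller log2FC here than with empty vector. The median difference was −0.17 from empty vector and −0.13 from Col1a1-miR-29b. Cholesterol synthesis genes had 10 lower here, 15 with empty vector and 5 with Col1a1-miR-29b. Their differences from empty vector passed for 0 of 22 genes with edgeR, and 0 had an unadjusted p under 0.05.

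A gene that DESeq2 called in both differences was Plpp6 (ENSMUSG00000040105, chr19:28963953-28966811), a lipid phosphatase gene on the list of miR-29 targets. It had 17.1, 19.1 and 21.1 CPM untreated and 30.2, 30.6 and 32.3 CPM with TGF-β. The groups did not overlap (log2FC 0.70, SE 0.094, adjusted p = 0.000215). With empty vector its log2FC was −0.13 and with Col1a1-miR-29b it was −0.26. The difference from empty vector was 0.83 (95% interval 0.57 to 1.09, edgeR adjusted p = 0.113), where DESeq2 gave an adjusted p of 1.39e-05 and the other alternatives 0.0956 to 0.436, or 1 in the test against a 2-fold change. Against Col1a1-miR-29b it was 0.96 (95% interval 0.70 to 1.22, edgeR adjusted p = 0.0619), where DESeq2 gave 1.72e-07 and the others 0.0527 to 0.422, or 1 in that test. Zfp385c, Gga3 and Gm5643 were called in opposite directions here and with empty vector, with edgeR adjusted p of 0.178, 0.113 and 0.127 for their differences. DESeq2 called the differences of Gga3 and Gm5643, and that of Gga3 also passed in the edgeR fit of only the groups compared. The call of Zfp385c here was lost without untreated replicate e or treated replicate c or d or e (adjusted p 0.0578 to 0.0665), and that of Gm5643 without untreated replicate c or d or treated replicate d or e (adjusted p 0.0634 to 0.109).

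**Figure D4:**
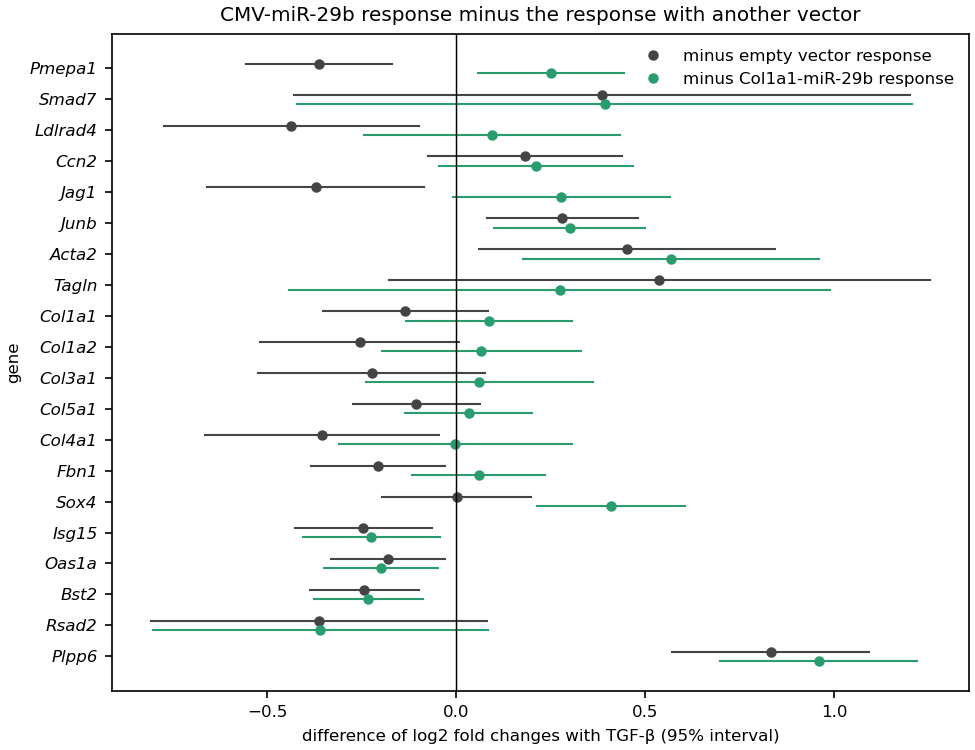
Difference in log2FC with TGF-β between CMV-miR-29b cells and cells with empty vector or Col1a1-miR-29b, with 95% intervals, for 20 genes; the vertical line marks 0. For Plpp6 the differences are 0.83 from empty vector and 0.96 from Col1a1-miR-29b.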

How the data were processed

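The authors deposited, for each library, a count per gene and an FPKM value. Per the submitters' notes, adapters were removed with cutadapt, reads were checked with FastQC, aligned by HISAT2 and assembled by StringTie. The deposited count values are whole numbers without normalization, and how the authors took them from the assemblies is not stated. In the 6 libraries 33.8% to 35.7% of the genes with 1 to 40 counts had a multiple of 4, more than the 1 in 4 that even counts give. Part of the small counts may therefore rise in steps of 4 and carry more than counting error. The deposited FPKM values, also the authors' own, scale for transcript length and library total. The notes name the build mm9, while the gene coordinates in the table match GRCm38, which is the build given here. Column names gave the sample of each library. In both Col1a1-miR-29b groups 1 column carries a letter found in no title, so its counts were used at the level of the group, and 2 per-sample columns, the FPKM values of these libraries, were not used. Whether overlapping or antisense genes were counted apart is uncertain.

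Counts were fitted in R 4.3.3 with edgeR 4.0.16 over all 18 libraries: filterByExpr, TMM scaling, 1 mean for each of 6 groups, quasi-likelihood tests and Benjamini-Hochberg adjustment. Differences between responses are contrasts of the same fit. Each SE comes from the F statistic. Total counts in the 6 libraries ran from 65898017 to 79164078. A gene is at the floor in a group where no library exceeds 3 counts. Because part of the small counts may rise in steps of 4, no fold is given against such a group. The fitted values printed for Myog are the exception. The p-values measure only the spread between these samples. The alternatives were DESeq2 1.42.0, edgeR with the size factors of DESeq2 or with total counts for scaling, 2 other filters, limma 3.58.1 on log2(FPKM + 1) and log2(FPKM + 0.1), a replicate block, the groups compared alone, a test against a 2-fold change and leaving out each of the 6 CMV-miR-29b libraries in turn. No empty vector or Col1a1-miR-29b library was left out in this way. Counts divided by 4, and the libraries of the block without it, were chosen after seeing the data. The code was tested on simulated data before use.

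The genes named were taken from 24 lists, the cell type markers, the differences between plasmids and genes the paper names. Added to these were the 12 largest rises and the 12 largest falls among called genes with a mean of at least 1 CPM and no overlap between groups. The 3 largest gains and the 3 largest losses in FPKM were taken from all called genes. Members and lists were chosen with earlier results of these data known. The lists are TGF-β ligands and latent binding proteins, TGF-β and BMP receptors, Smads, feedback inhibitors, activins and follistatins, Id genes and the BMP branch, early target genes, fibrillar collagens, other collagens, collagen maturation, matrix glycoproteins, matrix proteases, integrin subunits, contractile genes, mesenchymal transition factors, growth factors, inflammatory genes, interferon response genes, serine synthesis, antioxidant genes, cholesterol synthesis, cell cycle, endoplasmic reticulum genes and miR-29 targets. Promoters and miRNAs come from RefSeq tables (GRCm38.p6) and 3′ UTRs from GENCODE M21.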

Additional observations from a re-analysis of the deposited data

How the results depend on the processing

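The count of genes changed by TGF-β in CMV-miR-29b cells, 1047, was 527 with only the groups compared and 60 in the test against a 2-fold change. Genes higher, 652, numbered 361 and 56 under these. Genes lower, 395, numbered 624 with DESeq2, 166 with only the groups compared and 4 in the test against a 2-fold change. With 1 CMV-miR-29b library left out they numbered 249 to 357, the fewest without untreated replicate c. Genes changed at least 2-fold, 222, numbered 344 with DESeq2 and 58 with limma on log2(FPKM + 1).

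Genes whose response differed from that of empty vector cells, 0 with edgeR, numbered 19 with DESeq2, 1 with only the groups compared and 0 to 2 with 1 CMV-miR-29b library left out. At an unadjusted p under 0.05 they numbered 1129, and 230 in the test against a 2-fold change.

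Against Col1a1-miR-29b cells the 0 became 34 with DESeq2, 3 and 2 with limma on log2(FPKM + 1) and log2(FPKM + 0.1), which also leave out the 2 libraries whose FPKM was not used, 1 with only the groups compared and 0 to 2 with 1 CMV-miR-29b library left out. At an unadjusted p under 0.05 they numbered 1083, and 223 in the test against a 2-fold change. The differences in the responses of 3 collagens were near 0 and their sign depended on the libraries used. That of Col1a1, 0.086, was −0.0035 without untreated replicate e and 0.15 without untreated replicate d. That of Col1a2, 0.067, was −0.012 without untreated replicate e, −0.0021 without treated replicate d and 0.15 without untreated replicate c, and that of Col3a1, 0.061, was −0.015, −0.0049 and 0.15.

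The replicate block pairs libraries by letter. It gave 807 genes changed in CMV-miR-29b cells, against 919 in the same libraries without the block, and each gave 2 genes that differed from Col1a1-miR-29b cells. Between CMV-miR-29b libraries with and without TGF-β, residuals correlated at −0.025 on average for the 3 pairs that share a letter and at 0.012 for the 6 that do not. Myog, without counts in these libraries and so at the floor in both groups, had a fitted log2FC of −0.052 in the block, against 0. Its counts here hold no change, and the fitted value is not read as a fold.

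No gene called here had the opposite sign under any alternative. Of 137 named genes called, 117 stayed called in every alternative that tested them, the test against a 2-fold change aside.

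Each group held 3 libraries of 1 cell source, and the files give no share of transfected cells. Among the CMV-miR-29b libraries, total counts were lower in every treated one.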
